A study of Mus musculus with 6 samples.

Results

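The noncoding transcripts of TM4 cells were followed through the 743 array probes that carried a RefSeq accession for a noncoding RNA and whose spots were well above background, by the scanner software's own flag, on all 3 arrays of the untreated or of the exposed group. They were chosen from 2556 such probes among 56605 non-control probes. Of the 750 that met the detection rule, 7 probes for the imprinted RNAs H19, Meg3, Kcnq1ot1 and Airn were left out. TM4 is a mouse testicular somatic cell line, known as a Sertoli cell line. One group of 3 samples was left untreated, and the other group of 3 was exposed for 24 h to 10 uM PNP (4-nitrophenol, a phenol found in diesel exhaust and a breakdown product of some insecticides). All samples were total RNA of this 1 cell line. No label ties the 3 samples of a group to separate cultures, and the variation that the tests use could therefore be only technical.

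The members fell into classes with different ways of working. Long noncoding RNAs are transcribed and usually spliced like messenger RNA but are not translated into a known protein, and some act on chromatin or build nuclear bodies. Host gene RNAs carry small nucleolar RNAs (snoRNAs) or microRNAs in their introns or exons. The spliced host RNA is what a probe detects, whereas the released small RNA guides ribosomal RNA modification (snoRNAs) or represses messenger RNAs (microRNAs). Pseudogene transcripts come from copies of a gene that have lost the coding frame, and a probe can pair with the RNA of the parent as well. There were 23 probes of 21 host gene RNAs, 497 probes of long noncoding RNAs, 144 of pseudogenes, 25 of noncoding variants of coding genes and 21 of small RNAs. A further 33 probes matched no gene symbol. In all, 710 probes matched 660 symbols.

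The microRNAs of the host gene RNAs are shown first. The strongest difference among the host RNAs was that of Mir100hg, the host of miR-100, let-7a-2 and miR-125b-1. It lay between the first and second arrays of a slide and not between treatments, where the Mir100hg groups overlapped. A microRNA finds its targets mainly through the seed, bases 2 to 8, here in capitals. In the RefSeq table of GRCm38.p6, 16 members had a microRNA hairpin inside their span, with 64 listed mature sequences. The chromosome of the microRNA host Carmn was left out of these counts, so they are not complete. Mir100hg holds miR-100-5p at chr9:41531437-41531458 and miR-125b-5p at chr9:41581940-41581961, both on the + strand. Of let-7a-2 only the 3p arm is printed, because let-7a-5p had no sequence entry. The seed of that 5p arm is therefore not shown. Mir99ahg, matched to its microRNA by name, has miR-99a-5p at chr16:77598940-77598961, with the same seed as miR-100-5p. Dnm3os, transcribed opposite an intron of the dynamin gene Dnm3, holds miR-199a at chr1:162217844-162217866 and chr1:162217883-162217904 and miR-214-3p at chr1:162223438-162223459. Mir22hg holds miR-22-3p at chr11:75463772-75463793. D7Ertd143e holds members of the miR-290 cluster of embryonic stem cells, of which miR-294-3p at chr7:3220691-3220712 and miR-295-3p at chr7:3220815-3220837 share a seed.
miR-100-5p: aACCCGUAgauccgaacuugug
miR-99a-5p: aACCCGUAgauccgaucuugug
miR-125b-5p: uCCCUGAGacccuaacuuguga
let-7a-2-3p: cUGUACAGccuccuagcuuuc
miR-199a-5p: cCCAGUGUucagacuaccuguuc
miR-199a-3p: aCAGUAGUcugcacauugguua
miR-214-3p: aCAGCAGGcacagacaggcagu
miR-22-3p: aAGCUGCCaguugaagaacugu
miR-294-3p: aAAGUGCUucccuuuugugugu
miR-295-3p: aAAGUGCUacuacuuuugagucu
The arrays measured the host transcripts. The levels of the mature microRNAs were not analysed here.

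Many snoRNA host RNAs begin with a run of pyrimidines, the 5' terminal oligopyrimidine motif, which ribosomal protein messages also have and which links their translation to growth signals. The start sites were searched on the transcribed strand for a C followed by at least 4 C or T bases, beginning within 5 bases of the RefSeq start. Such a run stood at 10 of 19 host gene RNA starts with a window (52.6%), against 18.5% of 27025 windows of all genes and 21.8% of 377 long noncoding RNA windows. A run beginning exactly at the start, as the motif requires, stood at only 2 of 19 (10.5%), against 2.5% of all windows. The 10 include microRNA hosts, and the run of Dnm3os begins 5 bases before its start. Of 13 snoRNA hosts by name (Snhg and Zfas1), 7 held a run near the start (53.8%) and 2 at the start (15.4%). The letters TATAAA, searched on the same strand from 40 to 15 bases before the start, stood in 3 of 19 host gene windows (15.8%), against 2.2% of all windows. Both are descriptions of these windows and not of a factor's binding. Here 4 host gene starts that hold the run are printed from 60 bases before to 50 bases from the start, with the run in capitals, since Snhg7 and Dnm3os had the groups apart in the exposure comparison and Snhg8 and Snhg12 did not. Snhg7 lies on the - strand at chr2:26640195-26640304, Snhg8 on the - strand at chr3:123508287-123508396, Snhg12 on the + strand at chr4:132308618-132308727 and Dnm3os on the + strand at chr1:162217563-162217672 (RefSeq, GRCm38.p6).
Snhg7: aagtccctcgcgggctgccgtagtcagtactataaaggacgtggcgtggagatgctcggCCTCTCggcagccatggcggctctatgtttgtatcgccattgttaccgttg
Snhg8: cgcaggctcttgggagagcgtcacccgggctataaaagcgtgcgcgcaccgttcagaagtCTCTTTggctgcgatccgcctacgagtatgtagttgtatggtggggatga
Snhg12: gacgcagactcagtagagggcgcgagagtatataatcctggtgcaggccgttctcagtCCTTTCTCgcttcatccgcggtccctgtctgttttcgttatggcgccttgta
Dnm3os: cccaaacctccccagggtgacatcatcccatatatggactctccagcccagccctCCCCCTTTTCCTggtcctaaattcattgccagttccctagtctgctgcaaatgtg
The spans of 27 members hold at least 1 annotated snoRNA gene, on either strand.

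RNA was labelled with 1 dye, and 1 array was read per sample, 2 arrays on each of 3 slides. Untreated replicates 1 and 2 shared a slide, untreated replicate 3 shared one with PNP replicate 1, and PNP replicates 2 and 3 shared the last. Within each slide the file names number the arrays in order, here called position 1 (untreated 1, untreated 3 and PNP 2) and position 2 (untreated 2, PNP 1 and PNP 3). From 48% to 57.9% of probes were well above background per array, and none was saturated. Of 13 Sertoli cell markers, 10 were well above background on all 6 arrays, among them Sox9, Wt1 and Gata4, and Amh, Cldn11 and Fshr were so on none. None of 6 Leydig cell markers matched on the array was detected on any array. Of 5 macrophage markers, Csf1r, Cd68 and Cd14 were detected on all 6 arrays and Adgre1 and Ptprc on none, with a summed level of 3.84 to 4.22 in untreated samples and 3.63 to 4.02 after PNP, and of 3.63 to 3.88 at position 1 and 3.81 to 4.22 at position 2. Of 9 germ cell markers, Sycp3, Prm2 and Pou5f1 were detected on all 6 arrays and Ddx4, Prm1, Kit and Stra8 on none, with a summed level of -1.62 to -0.93 in untreated samples and -1.22 to -1.01 after PNP. The 4 peritubular myoid markers, which are contractile genes, were detected on all 6. Their summed level was 4.17 to 4.35 in untreated samples and 4.05 to 4.45 after PNP. By position it was 4.05 to 4.24 at position 1 and 4.16 to 4.45 at position 2. The summed level of the detected Sertoli markers (log2) ranged from 3.86 to 4.19 in untreated samples and from 3.57 to 4.14 after PNP, and from 3.91 to 4.19 at position 1 and 3.57 to 3.86 at position 2. The part of these marker levels in the results was not tested. Levels are log2 signals minus the array's 75th percentile. Fewer cells of a type and less RNA per cell cannot be told apart in such bulk samples.

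Host gene RNAs were found more often than long noncoding RNAs. Of the probes on the array, 63.9% of those for host gene RNAs, 24.0% for long noncoding RNAs, 48.2% for pseudogenes, 42.4% for noncoding variants and 70.0% for small RNAs met the detection rule, against 63.7% of 29937 messenger RNA probes. These shares describe what the rule chose. All 23 host gene RNA probes were well above background on all 6 arrays, as were 402 of 497 long noncoding RNA probes and 123 of 144 pseudogene probes. Over all members, 619 were so on all 6 arrays, 12 reached all 3 arrays in the untreated group alone and 112 in the PNP group alone. These passed through the group where they were high, so their differences are not used as support. For 8 of them no untreated array was well above background. The long noncoding RNA A930013F10Rik was at least 2.1-fold higher and 4930596I21Rik at least 2.09-fold higher after PNP. The other 6 lay between at least 1.09-fold and at least 1.91-fold. For these bounds, an untreated array counted with the probe's own signal or, if higher, with the dimmest signal called above background. None of the 8 had a limma adjusted p under 0.05. At the edge of the rule, the 8 that passed with 3 arrays of 1 group and none of the other had a median level of -4.12, and 35 probes with 2 arrays of each group, which were left out, had a median of -3.95.

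The exposure comparison asked which noncoding transcripts differed after 24 h in PNP. No member passed an adjusted p of 0.05 in limma, nor did any of the 28204 probes fitted (0.0%). The smallest adjusted p was 0.208 among the 736 members that could be fitted and 0.143 among all probes. At an unadjusted limma p under 0.05, 67 of the 736 fitted members were higher and 39 lower, against 6.28% of all probes higher and 3.1% lower. These counts include members that met the detection rule through 1 group alone, 112 through PNP and 12 through the untreated group. The split is therefore not used as support. That split turned with the scaling: it was 47 higher and 62 lower with median centring, 30 and 37 with normexp background correction, and 83 and 31 with the percentile taken over probes above background on all arrays. The median of all probes moved from -0.06 to -0.16 on the log2 scale with median centring, so small differences between groups have no settled sign. With array weights, which gave untreated replicate 1 a weight of 9.39 against 0.48 to 0.844 for the other arrays, 60 members and 1504 probes passed.

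Among the 612 fitted members detected on all 6 arrays, 46 (7.52%) had every PNP array above every untreated array and 43 (7.03%) had every PNP array below, against 5.95% and 8.73% of all such probes. Only 9 of these differed by 2-fold or more, 6 higher and 3 lower, where the shares of all probes were 1.01% and 0.121%. The median difference of the members detected on all 6 arrays was -0.01, and by class it was 0.03 for host gene RNAs, -0.003 for long noncoding RNAs, -0.05 for pseudogenes, 0.10 for noncoding variants and -0.06 for small RNAs. The same median was -0.08 over all probes and -0.11 over messenger RNA probes.

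In 3 of the host gene RNAs, Dnm3os, Snhg6 and Snhg7, every PNP array lay above every untreated array (3 of 23 probes, 13.0%, against 5.95% of all probes). Dnm3os read -2.56, -2.61 and -2.07 in the untreated samples and -1.85, -0.65 and -1.70 after PNP. The groups did not overlap, and the highest array was PNP replicate 2. The difference was 1.01 ± 0.34 (SE, n = 3 and 3), 2.02-fold, with a limma adjusted p of 0.419. Snhg6, a snoRNA host that holds Snord87, read 3.21, 3.76 and 3.32 untreated and 3.82, 4.20 and 4.54 after PNP, a difference of 0.76 ± 0.26 with limma adjusted p = 0.425. The lowest PNP value lay just above the highest untreated value. Snhg7, which holds Snora17 and Snora43, read 1.10, 1.30 and 1.26 untreated and 1.57, 1.58 and 1.99 after PNP, a difference of 0.49 ± 0.21 with limma adjusted p = 0.52. No host gene RNA had the groups apart in the other direction.

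The remaining host gene RNAs lay close to their untreated level or overlapped it. Snhg5 read 1.85, 1.84 and 1.87 untreated and 2.04, 1.89 and 1.70 after PNP, a difference of 0.02 ± 0.19. Its untreated values were the tightest of the class and lay within the range of the PNP values. The differences of Snhg1, Snhg9, Snhg10, Snhg16, Snhg20 and Zfas1 ranged from -0.15 to 0.15. Snhg12, whose start is among those printed, differed by 0.33 ± 0.22 and Snhg8 by -0.33 ± 0.25. Snhg3, the host of the Snora73 genes, differed by -0.52 ± 0.34, the lowest of the class, with overlapping groups. Of the microRNA hosts, Carmn, host of miR-143 and miR-145 in smooth muscle, differed by 0.53 ± 0.26. Mir22hg differed by -0.002 ± 0.25, Mir99ahg by -0.20 ± 0.20 and Mirg, host of many microRNAs of the Meg3 locus, by 0.06 ± 0.36.

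The lists of related genes had no member past the threshold. The 16 probes of 15 snoRNA host RNAs had a median difference of 0.03, with 9 above 0, 7 below and 3 apart from the untreated group, all higher. With median centring the median was -0.08. The 9 probes of 7 RNAs on the list of microRNA hosts had a median of 0.53, with 7 above 0. The list was set by name and lacked Mirc35hg, a host gene RNA with 3 hairpins in its span. Of the 9, 2 were Mir100hg probes and 2 were probes of the long noncoding RNA Lncpint (0.70 and 0.92). The search for hairpins found none in the span of Lncpint. The Lncpint probe at 0.70 was above background on 2 of the 3 untreated arrays. It met the detection rule through the PNP group. The median of 0.53 and the count of 7 include this probe, so they are not used as support. With normexp the median was 0.26. The partners that assemble snoRNAs with protein, such as the methyltransferase Fbl, the pseudouridine synthase Dkc1 and the assembly ATPases Ruvbl1 and Ruvbl2, had a median of -0.34 over 14 genes, and all 14 lay below 0. Under median centring all 14 lay below 0, and under each other scaling tried 13 did. Ruvbl2 read 3.83, 3.59 and 3.62 untreated and 3.41, 3.09 and 3.26 after PNP, a difference of -0.42 ± 0.20 (limma adjusted p = 0.555). None of the 14 passed the test. Of 19008 messenger RNA probes fitted, 11993 also lay below 0, with a median of -0.10. The 14 genes had a median of -0.25 for position 2 minus position 1, and position 2 held more PNP than untreated arrays. The part of position in the exposure difference of this list was not tested.

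The other coding lists had medians on both sides of that of all probes, -0.06. Nonsense-mediated decay factors, which degrade many snoRNA host RNAs after splicing, had a median of -0.11 over 15 genes. Paraspeckle proteins had -0.08 over 12, microRNA maturation factors -0.09 over 11, and partners of the 7SK and telomerase RNAs -0.21 over 14. Growth-related genes whose messages begin with a pyrimidine run, or that drive growth, had 0.14 over 7. All were counted in the same fit, where 0.0% of probes passed.

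snoRNA genes also lie within the spans of members with other names, a grouping chosen after the values were seen. The strand of the snoRNA gene was not matched to that of the member, so some of these members may not carry it. Of 27 members with a snoRNA gene in their span, 16 had a positive exposure difference, 7 were apart and higher after PNP and 1, Ipw, was apart and lower, where the shares over all probes were 5.95% and 8.73%. The 7 were 1110038B12Rik, 9330159M07Rik, Epb41l4aos, Ppp1r12b, Snhg6, Snhg7 and Taf1d. 1110038B12Rik, which holds Snord52, read 1.79, 2.05 and 2.43 untreated and 2.66, 3.03 and 3.52 after PNP, a difference of 0.98 ± 0.28 with limma adjusted p = 0.348. Epb41l4aos read 3.64, 3.67 and 3.21 untreated and 3.96, 4.02 and 4.70 after PNP, a difference of 0.72 ± 0.26. Ipw, an imprinted RNA of the Prader-Willi region, differed by -0.63 ± 0.22.

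Among long noncoding RNAs detected on all 6 arrays, 21 of 402 (5.22%) had every PNP array above every untreated array and 30 (7.46%) had every one below, against 5.95% and 8.73% of all probes. 8430423G03Rik had the largest exposure difference of all members. It read -1.66, -2.36 and -1.45 in the untreated samples and -0.16, 0.33 and 0.01 after PNP. All 3 PNP arrays lay more than 1 log2 unit above the highest untreated array, and the spread within each group was smaller than the gap. The difference was 1.88 ± 0.28 (SE), 3.68-fold, with a limma adjusted p of 0.208. With position as a term it was 2.08 with adjusted p = 0.0663, and with array weights 1.73 with adjusted p = 0.0175.

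Crnde, a long noncoding RNA first described as raised in colorectal tumours, gave different answers from its 2 probes. One read -3.93, -3.29 and -2.50 untreated and -2.34, -1.69 and -1.90 after PNP, a difference of 1.26 ± 0.36 with limma adjusted p = 0.349. The other read -1.11, -0.76 and -1.12 untreated and -1.11, -1.37 and -1.27 after PNP, a difference of -0.25 ± 0.20. The probes therefore had opposite signs, and at 1.52 log2 units this was the widest gap between probes of 1 gene in this comparison. The other long noncoding RNAs with the groups apart and higher after PNP included B130006D01Rik (0.94 ± 0.26), 2310010J17Rik (0.76 ± 0.25) and Tslrn1 (0.76 ± 0.27).

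Among those with the groups apart and lower after PNP and detected on all 6 arrays, BB123696 had the largest difference. It read -0.89, -0.06 and -1.49 untreated and -1.73, -1.66 and -2.25 after PNP, a difference of -1.06 ± 0.36 with limma adjusted p = 0.425. Its untreated values were spread widely, from -1.49 to -0.06. 6030469F06Rik read -2.17, -2.26 and -2.78 untreated and -3.03, -3.44 and -3.64 after PNP, a difference of -0.97 ± 0.25. 4922502H24Rik differed by -0.97 ± 0.27, A930016O22Rik by -0.89 ± 0.30, and 6530402F18Rik by -0.87 ± 0.31. One probe of Gm10845 differed by -0.82 ± 0.23 and its other probe by 0.15 ± 0.22, with overlapping groups.

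Several other named long noncoding RNAs had overlapping groups. Tug1, which binds chromatin regulators, read 0.05, 0.09 and -0.13 untreated and 0.12, 0.04 and -0.01 after PNP, a difference of 0.05 ± 0.19. Norad, which binds the Pumilio proteins, had 4 probes with differences from -0.17 to 0.06. Pvt1, a neighbour of Myc, had 2 probes with differences of 0.43 ± 0.30 and -0.05 ± 0.20. Lncpint, a p53-responsive RNA, had 2 probes with differences of 0.70 ± 0.39 (above background on 2 of the 3 untreated arrays) and 0.92 ± 0.40 and overlapping groups. Firre, which organises nuclear chromatin contacts, differed by 0.54 ± 0.30, Miat, found in nuclear domains, by -0.37 ± 0.25, and Jpx, an activator of Xist, by -0.27 ± 0.30. The 9 probes of nuclear body and architecture RNAs had a median of 0.05, with 5 above 0 and 4 below.

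Pseudogene probes showed differences in both directions, and 14 of 116 (12.1%) detected on all 6 arrays had every PNP array above the untreated arrays and 9 (7.76%) had every one below, against 5.95% and 8.73% of all probes. Gm31520 read -1.30, -1.86 and -1.73 untreated and -3.04, -2.91 and -3.61 after PNP. The groups were more than 1 log2 unit apart. The difference was -1.56 ± 0.26, 2.94-fold lower, with limma adjusted p = 0.224. Btnl5-ps read -2.23, -1.75 and -2.26 untreated and -2.81, -3.21 and -3.67 after PNP, a difference of -1.15 ± 0.27. Zfp133-ps (-0.92 ± 0.29), Gm6524 (-0.91 ± 0.33), Marcksl1-ps4 (-0.66 ± 0.21) and Rps4l (-0.51 ± 0.22) were also apart. Bambi-ps1 had the lowest difference of all members, -1.62 ± 0.38, but it was not above background on all arrays.

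The largest pseudogene difference in the other direction was that of 2610005L07Rik. It read 0.41, 0.67 and 1.74 untreated and 2.01, 2.22 and 2.57 after PNP, a difference of 1.33 ± 0.35 with limma adjusted p = 0.347. Untreated replicate 3 lay between the other untreated arrays and the PNP arrays. Mrgpra6, which the table names a pseudogene of the Mas-related receptor family, had 3 probes, all with the groups apart. One read -1.05, -0.68 and -0.62 untreated and 0.22, 0.89 and 0.15 after PNP, a difference of 1.20 ± 0.26, and the others differed by 0.85 ± 0.24 (SE) and 0.63 ± 0.26. Gm15694 differed by 0.93 ± 0.35, Rps15a-ps6 by 0.90 ± 0.30 and 2210409E12Rik by 0.88 ± 0.29.

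Noncoding variants of coding genes included the splicing and paraspeckle protein gene Sfpq. The probe for its noncoding variant read 1.65, 1.61 and 2.00 untreated and 2.60, 2.79 and 2.35 after PNP, a difference of 0.83 ± 0.22 with limma adjusted p = 0.347. The brightest Sfpq messenger probe read 5.25, 4.40 and 4.95 untreated and 4.16, 5.16 and 4.43 after PNP, a difference of -0.28 ± 0.32. The groups were apart for the variant and overlapped for the messenger probe. Ppp1r12b, a myosin phosphatase subunit, differed by 0.88 ± 0.29 and Taf1d, a polymerase I factor gene with 6 snoRNA genes in its span, by 0.55 ± 0.23. Aopep, which holds miR-23b, miR-27b and miR-24-1, read 1.14, 1.61 and 1.09 untreated and 0.83, 0.69 and 0.71 after PNP, a difference of -0.54 ± 0.21. Small RNAs had no member with the groups apart. Rpph1, the RNA of RNase P, differed by -0.53 ± 0.24, Rmrp by -0.09 ± 0.22 and Rn7sk, which holds back transcription elongation, by -0.05 ± 0.31.

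The position comparison asked whether noncoding transcripts differed between the first and second array of a slide, which is no treatment. In limma with treatment as a term, 38 of 736 members passed an adjusted p of 0.05 (5.16%), against 3.47% of all 28204 probes. Of these, 15 members were higher at position 2 (all probes 1.56%) and 23 lower (1.92%). By class they were 29 long noncoding RNA probes (14 higher and 15 lower), 5 pseudogene probes (all lower), 2 host gene RNA probes (both lower), 1 small RNA and 1 unmatched probe. Members detected on all 6 arrays had the positions apart in 72 cases higher (11.8%) and 70 lower (11.4%), against 11.4% and 11.8% of all probes. The calls rested on few arrays: without PNP replicate 2, untreated replicate 1 or untreated replicate 2 no member passed, and without PNP replicate 3 only 5 did.

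Mir100hg was the host gene RNA that passed the test between positions, with both of its probes. One probe read -1.58 (untreated 1), -1.08 (untreated 3) and -0.007 (PNP 2) at position 1, and -3.37 (untreated 2), -1.89 (PNP 1) and -2.40 (PNP 3) at position 2. The lowest position 1 array lay above the highest position 2 array. The difference was -2.09 ± 0.23 (SE, limma adjusted p = 0.0138), 4.26-fold lower at position 2, and it was -2.04 within the untreated group and -2.14 within the PNP group. The second probe read -1.28, -0.90 and 0.24 at position 1 and -3.005, -1.69 and -2.20 at position 2, with a difference of -2.05 ± 0.22. Both probes overlapped between treatments, with exposure differences of 0.58 ± 0.71 and 0.51 ± 0.70. With position as a term these were 1.28 and 1.19, with limma adjusted p of 0.161 and 0.167. Mir99ahg, whose miR-99a-5p shares the seed of miR-100-5p, also had the positions apart, but by -0.20 ± 0.18.

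Other long noncoding RNAs were lower at position 2. The long noncoding RNA Morrbid controls survival of short-lived myeloid cells by restraining the cell death gene Bcl2l11. A probe for it read -1.93, -1.54 and -1.94 at position 1 and -4.28, -3.30 and -3.92 at position 2. The difference was -2.11 ± 0.28 with limma adjusted p = 0.0175. This probe was above background on 2 of the 3 untreated arrays and on all 3 PNP arrays, so its difference rests in part on a signal not well above background. The second probe, above background on all 6 arrays, differed by -0.56 ± 0.22 and did not pass. 1600027J07Rik read 2.34, 2.43 and 2.49 at position 1 and 0.65, 1.12 and 0.82 at position 2, a difference of -1.63 ± 0.18 with limma adjusted p = 0.0138. Both probes of 3010003L21Rik passed, at -1.20 ± 0.20 for the probe above background on all 6 arrays and -1.59 ± 0.20 for one that missed it on 1 untreated array. 9230112J17Rik (-1.85 ± 0.19), A930004D18Rik (-1.64 ± 0.24), Ptgs2os2 (-1.50 ± 0.21), an antisense neighbour of the prostaglandin synthase Ptgs2, and Gm20324 (-1.40 ± 0.21) also fell between positions.

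The pseudogenes that passed were all lower at position 2. Gm5124 read -1.06, -1.26 and -1.03 at position 1 and -3.14, -2.80 and -2.80 at position 2, a difference of -1.88 ± 0.18, 3.68-fold, with limma adjusted p = 0.0138. Slfn10-ps, a copy from the Schlafen family, differed by -1.29 ± 0.22, Slc22a13b by -1.24 ± 0.20, Gm8801 by -1.13 ± 0.18 and Tyms-ps by -0.82 ± 0.17. Slc22a13b was above background on 2 of the 3 untreated arrays, the others on all 6. In all 5 the position 1 arrays were on average above the position 2 arrays in both treatment groups.

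Members higher at position 2 included both long and small RNAs. 5830454E08Rik read -0.34, -0.35 and -0.28 at position 1 and 1.00, 0.90 and 0.98 at position 2. The SD was 0.036 among the position 1 arrays and 0.052 among the position 2 arrays, and the difference was 1.28 ± 0.17 with limma adjusted p = 0.0169. Rnu3b1, a U3 RNA needed for processing of ribosomal RNA, read 2.71, 2.21 and 2.09 at position 1 and 3.85, 2.93 and 3.66 at position 2, a difference of 1.30 ± 0.26 with limma adjusted p = 0.046. 1600023N17Rik differed by 1.44 ± 0.21, Acss2os by 1.24 ± 0.17, A930001C03Rik by 1.16 ± 0.23 and 4933439C10Rik by 1.04 ± 0.19. Of these, A930001C03Rik was above background on 2 of the 3 untreated arrays. Neat1, the scaffold of paraspeckles, was apart between positions on both probes without passing: one read -1.32, -1.83 and -0.83 at position 1 and 0.05, -0.22 and -0.28 at position 2, a difference of 1.10 ± 0.28 with limma adjusted p = 0.0777, and the other differed by 1.00 ± 0.27.

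Small RNAs could be set beside the host RNAs that carry them, a grouping chosen after the values were seen. The snoRNA Scarna13 differed by 0.77 ± 0.18 between positions and its host Snhg10 by 0.56 ± 0.20. Snora78, above background on 2 of the 3 untreated arrays, differed by 1.14 while its host Snhg9 differed by -0.006 ± 0.19. Snora73a differed by -0.15 and its host Snhg3 by -0.16 ± 0.36. None of the 3 small RNAs or their hosts passed the test between positions. A probe for an intron-encoded RNA can also pair with unspliced host RNA.

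Genes with several probes and neighbouring coding genes gave 2 further views of the same values. Of 40 genes with 2 or more member probes, the probes had the same sign in 28 for the exposure and in 30 for position, with median gaps of 0.23 and 0.38 log2 units. For 128 noncoding members whose start lay within 5000 bases of a coding gene's start on the opposite strand, Pearson's r across pairs was 0.14 for the exposure difference and 0.08 for position. For 35 members overlapping a coding gene on the opposite strand, r was -0.19 and 0.51. For 15 pseudogenes and the genes they are named for, r was 0.38 and 0.81. These r values describe pairs that share the same arrays and are not tests.

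Single pairs showed both shared and opposed differences. Acss2os and the acetyl-CoA synthetase gene Acss2 that it overlaps both rose at position 2, by 1.24 and 0.93 (limma adjusted p = 0.0199 and 0.0498). A730017L22Rik fell by 1.14 while Atrn, whose start lies 98 bases away, rose by 1.04 (adjusted p = 0.0317 and 0.039). Snhg18 differed by 0.37 ± 0.20, whereas the axon guidance gene Sema5a, 150 bases from its start, fell by 1.99 (adjusted p = 0.334 and 0.0142). C130046K22Rik, above background on 2 of the 3 untreated arrays, fell by 1.86 (limma adjusted p = 0.0478) and the Golgi SNARE gene Gosr2 differed by 0.18 ± 0.20. Among pseudogenes, Hmga2-ps1 differed by -1.01 (adjusted p = 0.0812) and the chromatin gene Hmga2 fell by 1.53 (adjusted p = 0.0138), and Tyms-ps fell by 0.82 while the thymidylate synthase gene Tyms differed by -0.60 ± 0.18 (adjusted p = 0.11). Signal of a pseudogene and of its parent RNA on such a probe cannot be told apart.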

How the data were processed

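Total RNA of 6 samples was read on 1-colour Agilent arrays. The deposited scanner files hold spot intensity, background-subtracted per the file headers, which name Feature Extraction 11.5.1.1, while the submitters' processing notes name 10.7. The authors' log2 value table (column median 4.75 on every array) correlated at 0.998 to 1 with the log2 processed signal and served as an alternative.

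Here the processed signal was taken as log2, the array's 75th percentile subtracted, and outlier spots left out. Of 28370 probes that met the detection rule, 28204 entered lmFit and eBayes of limma (version 3.58.1, R version 4.3.3), with Benjamini-Hochberg adjustment over all of them. The 7 members not fitted were pseudogene probes. The exposure fit held the treatment alone, and the position fit held treatment and position. Precision is limited by having 3 arrays in a group.

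The files used pair probes with accessions, so symbols and classes come from RefSeq (GRCm38.p6), matched without version. Members and lists were chosen with earlier results of these data known. Named RNAs were the members of the noncoding lists, any member past the threshold, and, per class, the 6 (exposure) or 4 (position) largest differences in each direction among members above background on all 6 arrays whose groups did not overlap, with genes whose probes differ in sign and coding neighbours. RNAs named outside that rule were chosen after their values were seen. Fits were tested on simulated data. Alternatives covered background correction (normexp, offset 50), scaling, filters, array weights, slide, position and replicate terms, and leaving out each array.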

Additional observations from a re-analysis of the deposited data

How the results depend on the processing

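No result changed direction while past the threshold. For the exposure, nothing was past it in the main fit. Of 109 named probes, 24 changed the sign of their exposure difference with position as a term and 27 with slide as a fixed block. Leaving out 1 array changed the sign of 13 to 21. Between treatments, 0 members and 0 probes passed in limma under every alternative except array weights (60 members, 1504 probes). The class medians in this section are over all fitted probes, including those that met the detection rule through 1 group alone. The host gene RNA median (0.028) was 0.096 with the authors' values, -0.076 with median centring, 0.093 with normexp, 0.089 with the percentile over detected probes (above background on all arrays), 0.097 with quantile normalization, 0.164 with slide as a fixed block and -0.07 within position 2, and -0.037 to 0.143 leaving out 1 array. The long noncoding RNA median (0.039) was -0.065 with median centring, -0.068 with normexp and -0.091 within position 2, and -0.032 to 0.107 leaving out 1 array. For long noncoding RNA probes detected on all 6 arrays it was -0.003. The pseudogene median (-0.013) was -0.052 for probes detected on all 6 arrays, -0.042 with array weights, -0.117 with median centring, 0.048 with the percentile over detected probes, 0.013 with slide as a fixed block and 0.083 within position 1, and -0.088 to 0.014 leaving out 1 array. The noncoding variant median (0.145) was 0.002 with 1 probe per gene, 0.281 with array weights, 0.042 with median centring and -0.001 with normexp, and 0.075 to 0.218 leaving out 1 array. The small RNA median (-0.031) was -0.055 for probes detected on all 6 arrays and -0.189 to 0.22 leaving out 1 array. These medians therefore have no settled sign.

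Between positions, the 980 called probes became 565 with 1 probe per gene, 6832 with array weights, 0 with no filter, 1581 with normexp, 1995 with a robust variance trend, 4756 with slide as a fixed block, 2539 at an adjusted p under 0.1, and 0 to 1835 leaving out 1 array. The 38 members became 192 with array weights, 0 with no filter, 131 with slide as a fixed block, 22 without the treatment term, 74 at an adjusted p under 0.1, and 0 to 59 leaving out 1 array. Leaving out 1 array moved the host gene RNA median from -0.024 to 0.202, the long noncoding RNA median from 0.001 to 0.211, the pseudogene median from 0.01 to 0.036, the noncoding variant median from -0.108 to 0.127 and the small RNA median from 0.108 to 0.451. The pseudogene median (0.015) was -0.012 for probes detected on all 6 arrays, -0.011 with array weights, -0.041 with the authors' values, 0.046 with median centring, 0.06 with normexp, -0.037 with the percentile over detected probes, -0.04 with quantile normalization and 0.042 without the treatment term. The noncoding variant median (-0.053) was 0.239 with 1 probe per gene and 0.044 without the treatment term. The cause of these shifts was not tested.

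With the replicate number as a block, 0 members and 0 probes passed between treatments, and the class medians were 0.028 (host gene RNAs), 0.039 (long noncoding RNAs) and -0.013 (pseudogenes) as without it. Deviations of samples with the same number correlated at -0.422, -0.564 and -0.437. The samples of each such pair lay at different positions, so these values cannot show whether they were paired. With 2 arrays per slide, position was tested over 3 arrays against 3, and dim probes near background limit the small differences.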
